A study of Mus musculus with 15 samples.

Results

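The 80 genes described here encode the proteins of the cytoplasmic ribosome in the mouse. They were taken by symbol from the 54418 genes of the count table: protein-coding genes named Rpl or Rps plus a number, with at most an a, l or x after it, together with Rplp0, Rplp1, Rplp2 and Rpsa. Pseudogenes and the Rps6k kinases were left out, and 49 of the 80 belong to the large subunit and 31 to the small. The rule leaves out 8 further ribosomal proteins and close paralogs with other names, such as Fau and Rps3a1, which are given as a list of their own. A low-count filter kept 14925 genes, among them 77 of the 80. The other 3, Rpl3l, Rpl10l and Rpl39l, held 1 to 4 counts each over all 15 libraries.

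The libraries come from organoids, epithelial structures grown in culture, of a mouse colon cancer of the genotype given as AKP. Organoids had been placed in the colon of immunocompetent C57Bl6 mice, new organoids were grown from the tumours that formed, and this was done over 3 rounds with several lines in each. Met1, Met2 and Met3 are organoids from liver metastases of rounds 1, 2 and 3, and Primary2 and Primary3 are organoids from primary tumours of rounds 2 and 3, with 3 poly(A)-selected libraries per group. All 5 groups share the genotype and the recipient strain, and no parental or round 1 primary organoid was analysed here. The sources used here do not say whether replicates are separate mice, lines or cultures. Each p-value sets a change against the spread between replicate libraries, and that spread may be technical.

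Libraries held between 14122203 and 21306543 counts. Summed CPM (counts scaled to a common library size, with sizes adjusted by the trimmed mean of M-values, TMM) over 12 colon epithelial markers ran from 11461 to 14449 in Met1, from 12939 to 17012 in Met3 and from 6382 to 8840.1 in the primaries. In Met2 it ran from 5881 to 16438, with replicate 1 lowest. The 10 hepatocyte markers summed to 1.64 to 6.36 CPM in Met1 and to at most 1.56 elsewhere, with 1 of the 10 over 1 CPM in any library. The 8 fibroblast markers summed to at most 5.16 CPM. The 6 endothelial markers reached 46.3 CPM in a Met1 library through Vwf alone, and stayed at or below 1.34 outside Met1. Of 8 leukocyte markers only Cd68 passed 1 CPM in any library. It was higher in Met1 (1.66, adjusted p = 0.00466) and in Met2 and Met3 (0.97, adjusted p = 0.0266) than in the primaries, at 19.02 to 28.9 CPM in Met1 and 3.55 to 11.8 in the primaries. The part of these markers, and of the cells they stand for, in the results on the ribosomal protein genes was not tested.

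Each ribosome carries 1 copy of nearly every ribosomal protein, and the cell makes these proteins in step although their genes lie scattered over almost all chromosomes. Their mRNAs are short and abundant, and they commonly begin with a tract of pyrimidines at the start, the TOP motif, through which mTOR signalling controls how fast they are translated. Ribosome production follows growth, and Myc, which Wnt signalling raises in the gut, drives it. Free Rpl5, Rpl11 and Rpl23 can bind Mdm2, the ligase that removes p53.

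Ribosomal protein genes took a smaller share of the counts in Met1 than in most other libraries. The 80 genes held 8.09%, 6.92% and 8.43% of all counts in Met1 (replicates 1, 2 and 3, the order used for every such set of 3 values). They held 10.4%, 9.86% and 9.51% in Met2, 10.1%, 11.0% and 10.9% in Met3, 10.6%, 9.65% and 8.32% in Primary2 and 9.63%, 9.73% and 8.998% in Primary3. The group means were 7.81 ± 0.79% (SD, n = 3) in Met1, 9.94 ± 0.47% in Met2, 10.7 ± 0.51% in Met3, 9.52 ± 1.14% in Primary2 and 9.45 ± 0.40% in Primary3. Every Met1 library lay below every Met2, Met3 and Primary3 library, and Primary2 replicate 3 fell inside the Met1 range. Both subunits had their lowest mean in Met1, with a rise from 4.51% in Met1 to 6.28% in Met3 for the large and from 3.30% to 4.39% for the small. The share is a proportion: less mRNA from these genes per cell and more of every other RNA cannot be told apart. The ribosomal RNA gene, a transcript without a poly(A) tail, took 2.01%, 3.56% and 3.73% in Met1 and 6.33%, 6.24% and 7.52% in Met2. It took 3.85%, 4.09% and 3.38% in Met3, 3.82%, 3.83% and 3.74% in Primary2 and 3.53%, 6.59% and 7.03% in Primary3. With it and the mitochondrial genes taken out of the total, the members' share was 8.20 ± 0.81% in Met1 and 10.1 to 11.3% as a mean in each other group.

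**Figure D1:**
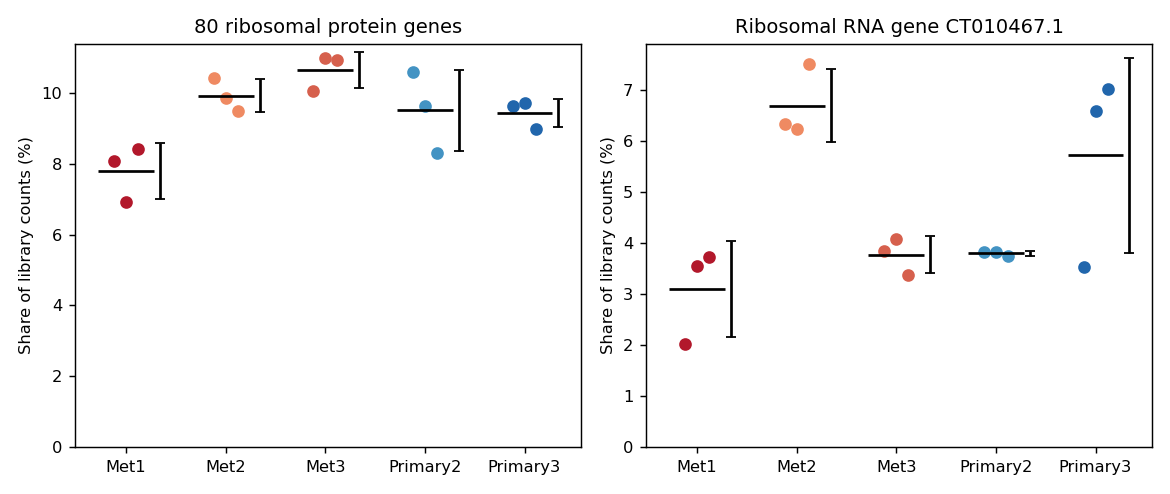
Share of each library's counts, in percent, held by the 80 ribosomal protein genes (left) and by the ribosomal RNA gene CT010467.1 (right). Points are libraries in the order of their replicates, lines are group means and bars are 1 SD (n = 3). The Met1 mean is lowest on the left at 7.81 ± 0.79%. The Met2 mean is highest on the right, with Primary3 replicates 2 and 3 inside the Met2 range.

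Most members had levels of one order per unit of transcript length. In CPM per kilobase of transcript, averaged over the libraries, the median member stood at 1641, and 54 of 80 lay within 2-fold of it. The 5 highest were Rplp1 (4748), Rpl41 (4482), Rpl23a (4103), Rplp0 (4016) and Rpl13a (4004 CPM per kilobase). Rplp1 and Rplp0 belong to the stalk, the flexible arm of the large subunit that activates elongation factors, and Rpl41 encodes the smallest ribosomal protein. With lengths from the union of all exons, 4 of these 5 stayed among the 5 highest. Rpl3l, Rpl10l and Rpl39l, the copies used in striated muscle and in the testis, were lowest, at most 0.0139 CPM per kilobase. Next came Rps27 (25.98) and Rpl5 (51.8 CPM per kilobase), and then Rpl12 (100.03 CPM per kilobase). The third stalk gene, Rplp2, stood at 1653 CPM per kilobase.

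The low values of Rps27 and Rpl5 went together with counts given to near-identical copies elsewhere in the genome. Other genes with at least 95% identity over at least 80% of the coding sequence were found for 70 of the 80 members, 532 copies in all, of which 520 are annotated as pseudogenes and 12 as protein-coding genes. Of the 12, Ciapin1 (a copy of Rpl7a by this definition) also has an mRNA of its own, so its counts do not come from a ribosomal sequence alone. In 24 members such copies held over 10% of the counts of member and copies together, and in 8 over 50%. The shares were 98.8% for Rps27, 96.6% for Rpl5, 94.4% for Rpl12, 71.9% for Rpl10, 71.0% for Rpl11, 69.3% for Rpl27a, 67.9% for Rpl35 and 66.9% for Rps23. With copies included, the median rose to 1795 CPM per kilobase, and 67 members rather than 54 lay within 2-fold of it.

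Sequences of 3 members and their copies are shown because the copy repeats the member's letters over long stretches. The first 60 bases of coding sequence of Rpl5 and of its copy Gm15500 are given, then bases 56 to 115 of Rpl11 and its copy Gm10288, and the first 60 bases of Rps27 and its copy Rps27rt, from the GENCODE M21 transcripts. Capitals mark a base that differs.
Rpl5: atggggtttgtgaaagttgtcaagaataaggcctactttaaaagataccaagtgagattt
Gm15500: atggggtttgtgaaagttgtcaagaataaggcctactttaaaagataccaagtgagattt
Rpl11: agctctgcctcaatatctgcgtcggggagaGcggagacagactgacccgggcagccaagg
Gm10288: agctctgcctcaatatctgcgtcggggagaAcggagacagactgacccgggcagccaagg
Rps27: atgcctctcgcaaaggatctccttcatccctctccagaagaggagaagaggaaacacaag
Rps27rt: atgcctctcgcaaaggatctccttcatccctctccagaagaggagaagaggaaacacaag
Over the whole coding sequence, Rpl5 and Gm15500 differed at 0 of 891 bases and Rps27 and Rps27rt at 0 of 252. Rpl11 and Gm10288 differed at 1 of 534 bases, G86A, counted from the A of the start codon with the base of Rpl11 first.

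The copies Gm15500 and Rpsa-ps10 were high in the libraries where members near the parent gene were high. Rpl5 lies on chromosome 5 (107900502 to 107909005) and Gm15500 on chromosome 7 (114705217 to 114706235). Gm15500 was given 1570.3, 1538 and 1612 CPM in Met1, 3477, 1768 and 2821 in Met2, 2442, 2161 and 2434 in Met3, 2629, 2245 and 1476 in Primary2 and 1735, 2168 and 2045 in Primary3. Its highest library was Met2 replicate 1, the library in which Rpl21, Rpl6, Rpl9 and Rplp0 on chromosome 5 also peaked. Rpl5 itself was given 50.1, 41.8 and 46.5 CPM in Met1, 120.2, 54.9 and 80.3 in Met2, 70.9, 52.2 and 76.5 in Met3, 129, 97.1 and 57.7 in Primary2 and 90.98, 75.4 and 75.3 in Primary3. Rpsa-ps10 on chromosome 3, with 241, 165 and 382 CPM in Met2 and 136, 139 and 155 in Met3, was likewise high and low in the libraries where Rpsa on chromosome 9 was. Summing each member with its copies left the counts of called members close to those given below: 65 higher and 1 lower for Met3 against Met1, and 25 higher and 0 lower for metastasis against primary.

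**Figure D2:**
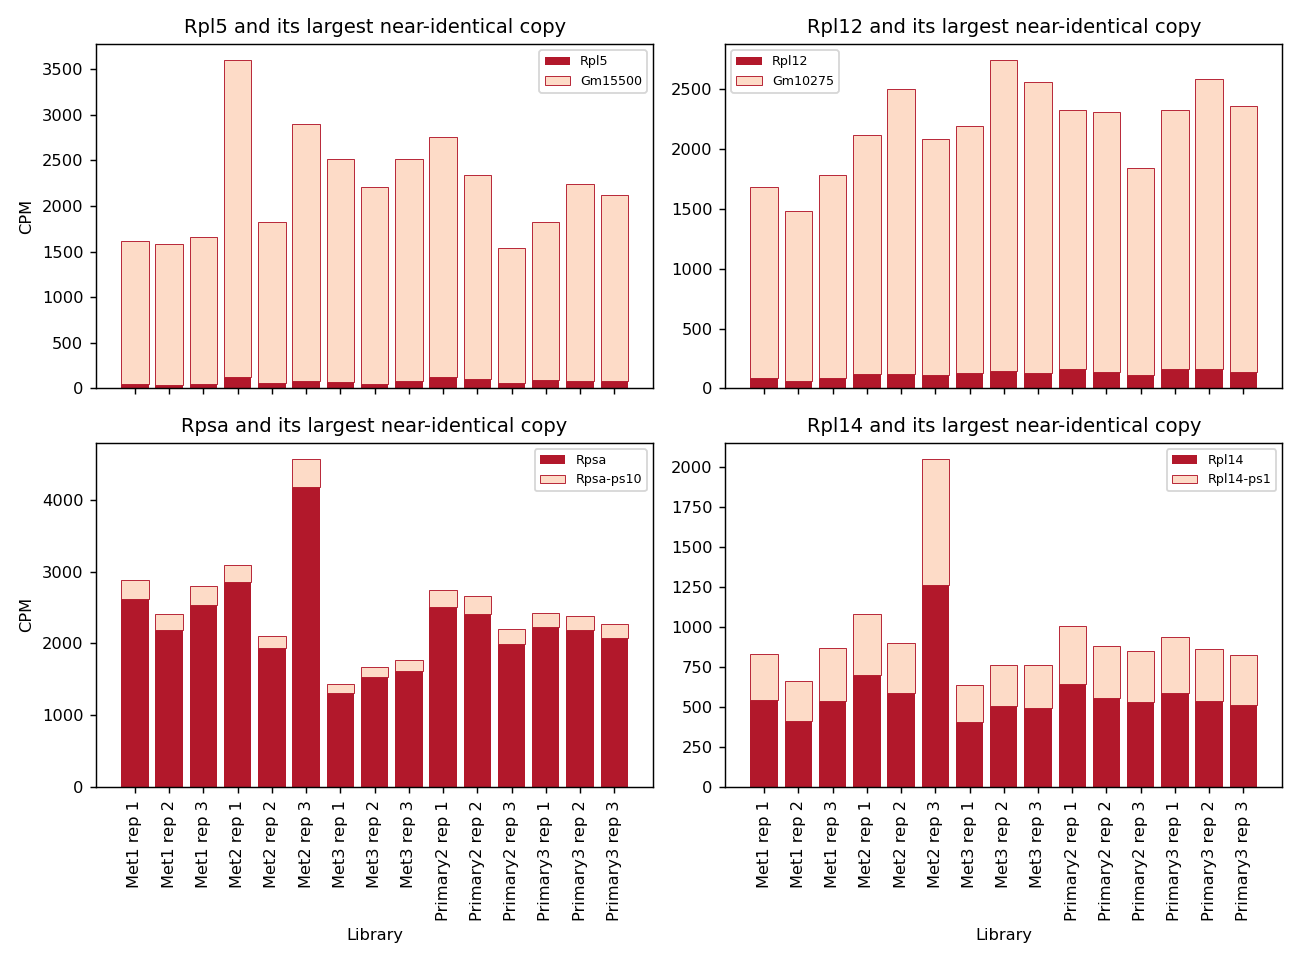
Stacked CPM per library of Rpl5, Rpl12, Rpsa and Rpl14 (dark) and of the largest near-identical copy of each (light). Gm15500 and Gm10275 take most of the counts of Rpl5 and Rpl12, while Rpsa keeps most of its own; the tallest bar for Rpsa and Rpl14 is Met2 replicate 3.

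Most ribosomal protein genes were higher in Met3 than in Met1. In Met3 against Met1, 65 of 77 members were called higher and 1 lower at an adjusted p under 0.05, where 11.6% of all 14925 genes were higher and 11.8% lower. The median log2 change was 0.63 over the members and 0.01 over all genes. Of the large subunit 38 of 46 rose, and of the small subunit 27 of 31 rose and Rpsa fell. Fitted changes were positive for 73 of 77 members and ran from -0.72 to 1.04 (Rpl21), with the middle of the members between 0.51 and 0.76 (quartiles). The 11 that did not pass included Rpl3, Rpl29, Rpl14, Rplp0, Rpl10a, Rpl13a, Rps9 and Rps2. On library totals without TMM scaling the median of all genes moved from 0.01 to -0.11 and that of the members from 0.63 to 0.51. There 58 members were called higher and 2 lower, against 1231 higher and 2357 lower over all genes.

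Rpl13, a large-subunit protein (ENSMUSG00000000740, GRCm38 chromosome 8, 123102350 to 123105244), had the smallest p. It was measured at 1337, 1196 and 1442 CPM in Met1, 1814, 1901 and 2078 in Met2, 2091, 2366 and 2216 in Met3, 2156, 2034 and 1974 in Primary2 and 2192, 2442 and 2360.1 in Primary3. All 3 Met1 libraries lay below the other 12, and the change from Met1 to Met3 was 0.75, SE 0.10, adjusted p = 0.00126 on the log2 scale. Rpl23, which sits at the subunit interface and can bind Mdm2, was measured at 648, 615 and 730.1 CPM in Met1, 1110.3, 1107 and 1047 in Met2, 1008, 1223 and 1257 in Met3, 1095, 998 and 856 in Primary2 and 1024, 1236 and 1110.3 in Primary3. It rose by 0.81, SE 0.12, adjusted p = 0.00214, again with Met1 below every other library. Rpl38, whose loss disturbs the patterning of the mouse skeleton, stood at 453 ± 67.03 CPM in Met1, 749.5 ± 56.3 in Met2, 848 ± 71.3 in Met3, 704 ± 109.7 in Primary2 and 762 ± 72.3 in Primary3 (SD, n = 3) and rose by 0.90, SE 0.14, adjusted p = 0.00223.

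Of the others named by smallest p, Rps25, needed for initiation at some viral internal entry sites, rose by 0.82 (adjusted p = 0.00223). Rpl24, mutated in the Belly spot and tail mouse, rose by 0.80 (0.00223) and Rps10, a gene of Diamond-Blackfan anaemia, by 0.77 (0.00234). Rpl31, at the rim of the exit tunnel, rose by 0.73 (0.00272), with the adjusted p in parentheses. Rpl3, which helps shape the peptidyl transferase centre, stood at 2046 ± 36.5 CPM in Met1, 2062 ± 44.4 in Met2, 2011 ± 175 in Met3, 1989 ± 274 in Primary2 and 1997 ± 139 in Primary3. Its group means lay between 1989 and 2062 CPM, and the test was not passed (-0.03, SE 0.11, adjusted p = 0.894).

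The single member called lower in Met3 was Rpsa (ENSMUSG00000032518, GRCm38 chromosome 9, 120127689 to 120132369), which is also known as a laminin receptor precursor. It was measured at 2613, 2192 and 2534 CPM in Met1, 2848, 1935 and 4182 in Met2, 1305, 1531 and 1617 in Met3, 2512, 2415 and 1995 in Primary2 and 2222, 2186 and 2069 in Primary3. All Met3 libraries lay below the other 12, and Met2 replicate 3 lay above all. The change against Met1 was -0.72, SE 0.21, adjusted p = 0.029. That call was lost without Met1 replicate 1 (0.0749), Met1 replicate 3 (0.0681), Met3 replicate 1 (0.104), Met3 replicate 2 (0.0626) or Met3 replicate 3 (0.0504).

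The same Met1 libraries enter the comparisons with Met2 and with the primaries, so these are not independent. In Met2 against Met1, 48 members were called higher and 0 lower, where 8.7% and 7.57% of all genes were (median 0.54 over members, 0.03 over all genes). Among the 4 of smallest p were Rpl23 (0.71, adjusted p = 0.00748), Rpl31 (0.67, 0.00792) and Rpl13 (0.54, 0.00824). In Met1 against the primaries, 38 members were called lower and 0 higher, where 14.7% of all genes were lower and 14.9% higher, 29.6% in either direction. The median was -0.34 over members and -0.03 over all genes. Rpl13 fell by 0.72 (adjusted p = 0.00042), Rpl12, at the base of the stalk, by 0.89 (0.000742), Rpl23 by 0.66 (0.00162) and Rpl38 by 0.69 (0.00242), with the adjusted p in parentheses. Without Met1 replicate 2, 8 members were called higher in Met2 against Met1, where 1.62% of all genes were higher and 2.10% lower. In Met1 against the primaries 19 were then called lower, where 7.49% of all genes were higher and 6.25% lower. Without Met1 replicate 1 the calls numbered 31 (4.84% of all genes higher, 5.82% lower) and 25 (11.2% higher, 9.37% lower). Fitted on Met2 and Met1 alone, no member was called (median 0.54), where 0.0148% of all genes were higher and 0.0889% lower.

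Short genes outside the ribosome were more often higher than lower in Met3 against Met1. Of the 77 members 63 have a median transcript of up to 1 kb. Among 3214 other genes of up to 1 kb, 17.0% were higher and 7.87% lower in Met3 than in Met1 (median log2 change 0.17). Among 7263 genes over 2 kb, 7.16% were higher and 15.5% lower (median -0.12). In Met1 against the primaries the short genes had a median of -0.15 and the long ones 0.07. In Met2 against Primary2, 7.59% of the short genes were higher and 3.33% lower, and in Met3 against Primary3 7.56% and 9.43%. In metastasis against primary 15.4% of the short genes were higher and 11.4% lower. The part of transcript length in the members' change was not tested.

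**Figure D3:**
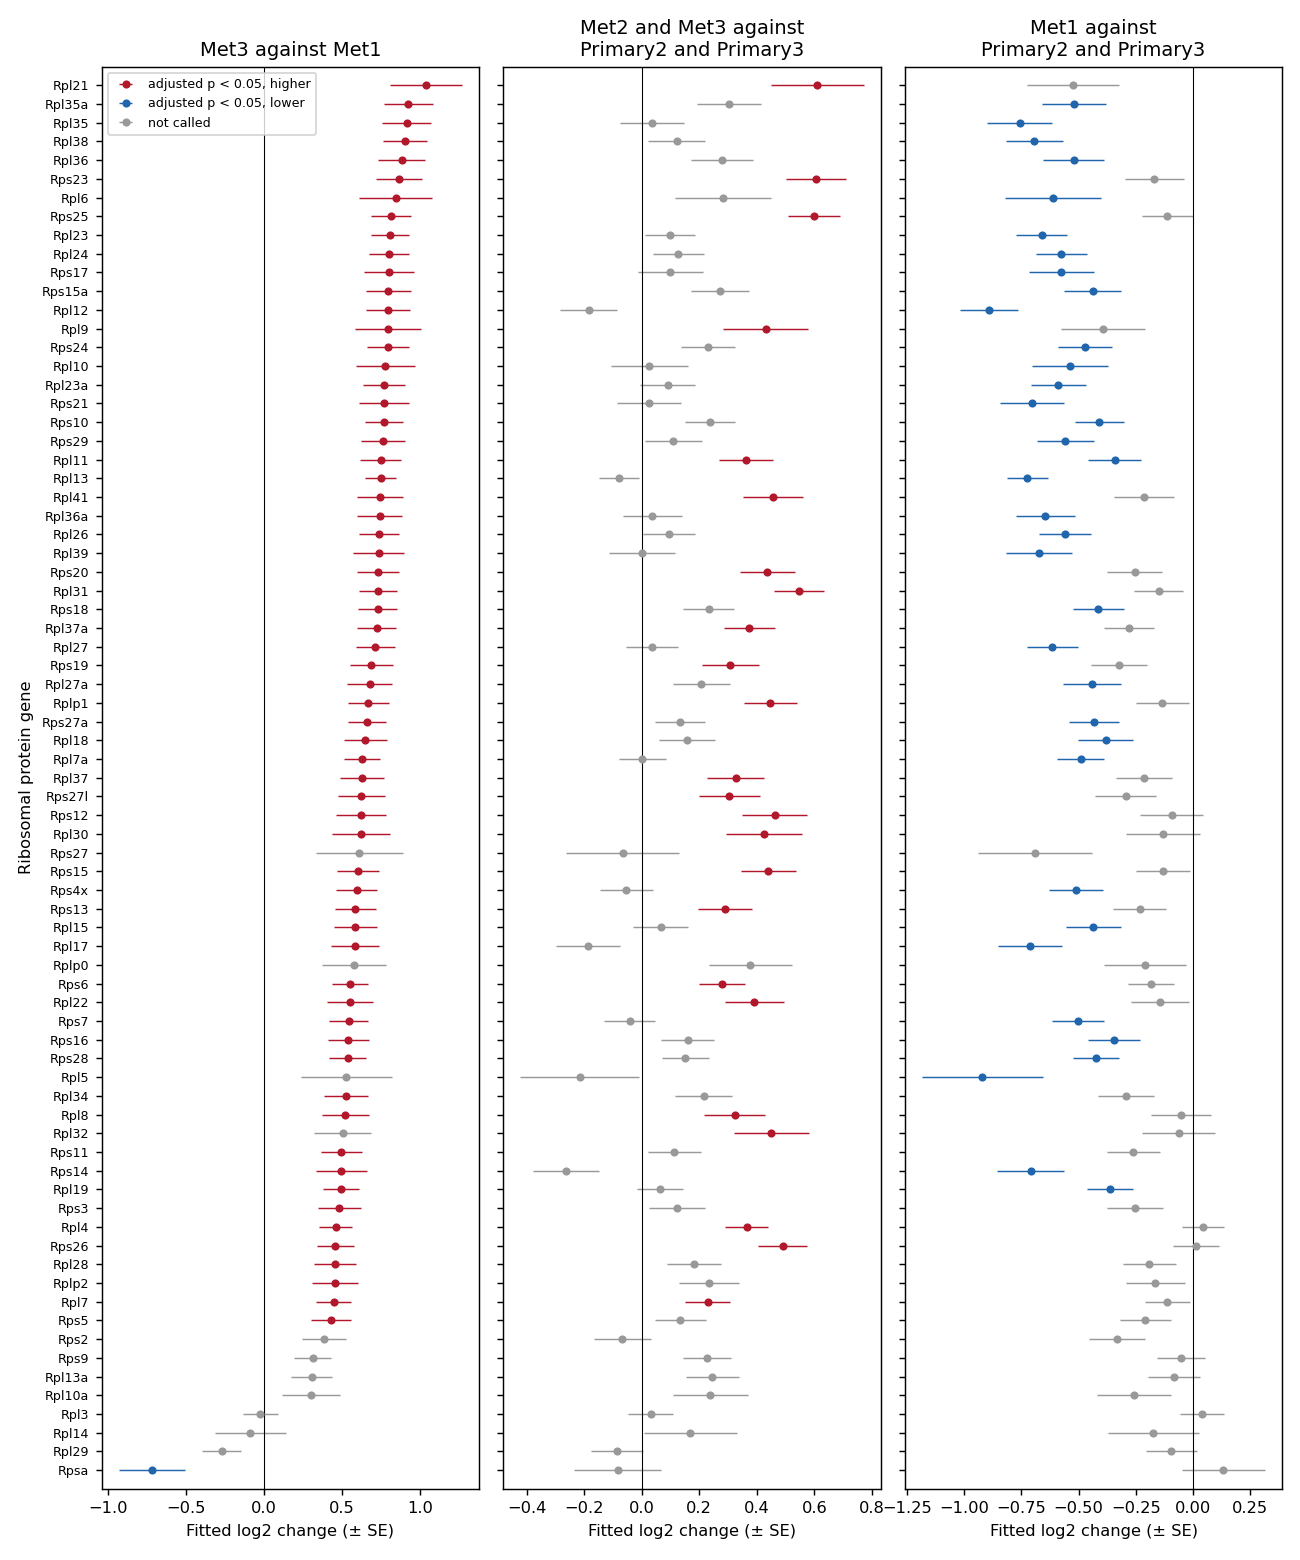
Fitted log2 change with its standard error for 75 of the 77 ribosomal protein genes in Met3 against Met1, in Met2 and Met3 against Primary2 and Primary3, and in Met1 against Primary2 and Primary3, in the order of the first. Red and blue mark adjusted p under 0.05; of those drawn, 63 are higher and Rpsa lower in the first panel, 24 higher in the second, and 36 lower in the third.

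Between later metastases and primaries the change was smaller and less even. With Met2 and Met3 against Primary2 and Primary3, 25 of 77 members were called higher and 1 lower, where 14.3% of all genes were higher and 16.1% lower, 30.4% in either direction. The median log2 change was 0.21 over members and 0.01 over all genes. Of the large subunit 14 rose and 1 fell, and of the small subunit 11 rose. Fitted changes were positive for 65 of 77 members and ran from -0.26 (Rps14) to 0.61 (Rpl21). On library totals without TMM scaling 16 members were higher and 2 lower, against 1610 higher and 2938 lower over all genes. Without Met3 replicate 2 the calls numbered 17, all higher, where 11.7% of all genes were higher and 13.8% lower. Without Primary3 replicate 1 they also numbered 17 (11.3% and 13.7% of all genes), and without Primary3 replicate 3 they numbered 16 (11.0% and 12.9%).

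Rps25 (ENSMUSG00000009927, GRCm38 chromosome 9, 44407139 to 44410427) had the smallest p, at 854, 784 and 912 CPM in Met1, 1309.8, 1400.0 and 1179 in Met2, 1319, 1633 and 1537 in Met3, 964, 950.4 and 751 in Primary2 and 874, 1032 and 949 in Primary3. The 6 later metastasis libraries lay above the 6 primary and 3 Met1 libraries with no overlap, and the change was 0.60, SE 0.09, adjusted p = 0.000555. Rpl31 (ENSMUSG00000073702, GRCm38 chromosome 1, 39367842 to 39371911) was measured at 535, 532 and 611 CPM in Met1, 932, 895 and 835 in Met2, 819.5, 994 and 972 in Met3, 648, 616 and 496 in Primary2 and 614, 707 and 653 in Primary3. Its groups did not overlap either, and it rose by 0.55, SE 0.09, adjusted p = 0.000734.

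Rps26 (ENSMUSG00000025362, GRCm38 chromosome 10, 128624534 to 128626747), which lines the channel where mRNA leaves the small subunit, was measured at 894, 852 and 992 CPM in Met1, 1326, 1316 and 1220.0 in Met2, 1200.4, 1427 and 1129.8 in Met3, 999, 861 and 793 in Primary2 and 972, 938 and 865 in Primary3. It rose by 0.49, SE 0.08, adjusted p = 0.00118, with Met1 at the level of the primaries. Rps23, at the decoding centre, stood at 320.4 ± 31.9 CPM in Met1, 515 ± 57.4 in Met2, 584 ± 74.96 in Met3, 332 ± 44.6 in Primary2 and 391 ± 50.6 in Primary3 and rose by 0.60, SE 0.10, adjusted p = 0.00124. Near-identical copies, chiefly Rps23-ps1, hold 66.9% of the counts of Rps23 and its copies. Rpl4, which lines the exit tunnel, was measured at 2189, 2075 and 2237 CPM in Met1, 2289.9, 2607 and 2489.8 in Met2, 2691, 3237 and 3008 in Met3, 2280.5, 2127 and 1848 in Primary2 and 2052, 2229 and 2077 in Primary3. It rose by 0.37, SE 0.08, adjusted p = 0.00337. Its lowest later metastasis library, Met2 replicate 1, lay just above its highest primary library, Primary2 replicate 1.

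Rplp1 of the stalk rose by 0.45, SE 0.09, adjusted p = 0.00368. Rps15, in the head of the small subunit, rose by 0.44 (adjusted p = 0.0047). Rps20, mutated in some families with hereditary colorectal cancer, rose by 0.44 (adjusted p = 0.00494). The other risers included Rpl41, Rpl37a, Rps12, Rpl11, Rpl21, Rpl22, Rpl32, Rps6, Rpl37, Rpl30, Rps19, Rps13, Rpl8, Rpl9, Rpl7 and Rps27l. Among 20 alternatives of processing or left-out libraries, the call of Rpl9 was lost in 13, that of Rps27l in 12 and that of Rps19 in 7.

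Within each round fewer members passed. In round 2, Met2 against Primary2, 7 were called higher and 0 lower, where 5.5% and 6.35% of all genes were, with a median of 0.21 over members. On library totals without TMM scaling 4 were higher and 2 lower, where 3.63% and 9.67% of all genes were. Among the 7 were Rpl31 (0.60), Rps26 (0.54), Rps23 (0.63), Rps25 (0.55), Rps20 (0.52) and Rpl22 (0.53), with the log2 change in parentheses. In round 3, Met3 against Primary3, 11 were called higher and 0 lower, where 8.12% and 11% of all genes were, with a median of 0.21. The 4 of smallest p were Rps25 (0.65), Rpl4 (0.49), Rpl31 (0.50) and Rps23 (0.58). These 2 comparisons share no library but come from 1 fit with a shared estimate of the spread. Rpl31, Rps26, Rps23 and Rps25 were called in both, and the share of all genes called in both is not given here. In round 2 the calls, all higher, numbered 3 without Primary2 replicate 2, where 2.61% of all genes were higher and 3.37% lower. They numbered 1 without Primary2 replicate 3 (1.90% and 2.74%) and 0 when fitted on the 2 groups of that round alone (0.687% and 0.901%). In round 3 they numbered 2 without Met3 replicate 2 (4.95% of all genes higher and 6.62% lower) or Primary3 replicate 3 (3.33% and 5.57%). They numbered 5 without Primary3 replicate 1 (4.9005% and 7.95%) and 7 without Primary3 replicate 2 (3.803% and 6.65%).

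No member passed the test of the difference between the rounds (edgeR 0 calls, DESeq2 0, and 6 at an unadjusted p under 0.05, where edgeR called 0% of all genes and 1817 had an unadjusted p under 0.05). Nor did any differ between Primary3 and Primary2 by edgeR or DESeq2, with 2 at an unadjusted p under 0.05, against 1063 of all genes, of which edgeR called 0%. In Met3 against Met2 edgeR called 0 members and 0.275% of all genes (0.0536% higher, 0.221% lower), and 6 members and 2157 of all genes had an unadjusted p under 0.05. DESeq2 called 3 members lower, where it called 2.93% of all genes lower. The smallest p there belonged to Rpsa (-1.01, SE 0.21, adjusted p = 0.0706), Rpl29 (-0.57, SE 0.13, adjusted p = 0.082) and Rpl14 (-0.86, SE 0.23, adjusted p = 0.135). Without Met2 replicate 2, 3 members were called lower, where 1.07% of all genes were lower.

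The members did not all move by the same amount, and those of one chromosome region often departed together. For each member a departure was taken: its log2(CPM + 1) less its mean over the 15 libraries, less the median of that quantity over the members in the library. The SD of the departures over libraries had a median of 0.15 and was largest for Rpsa (0.53), Rpl5 (0.41), Rpl14 (0.40), Rpl21 (0.34) and Rpl29 (0.33). Rpsa, Rpl14 and Rpl29 lie on distal chromosome 9, and Rpl5 and Rpl21 on chromosome 5. Which regions are described below was decided after these values were seen.

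**Figure D4:**
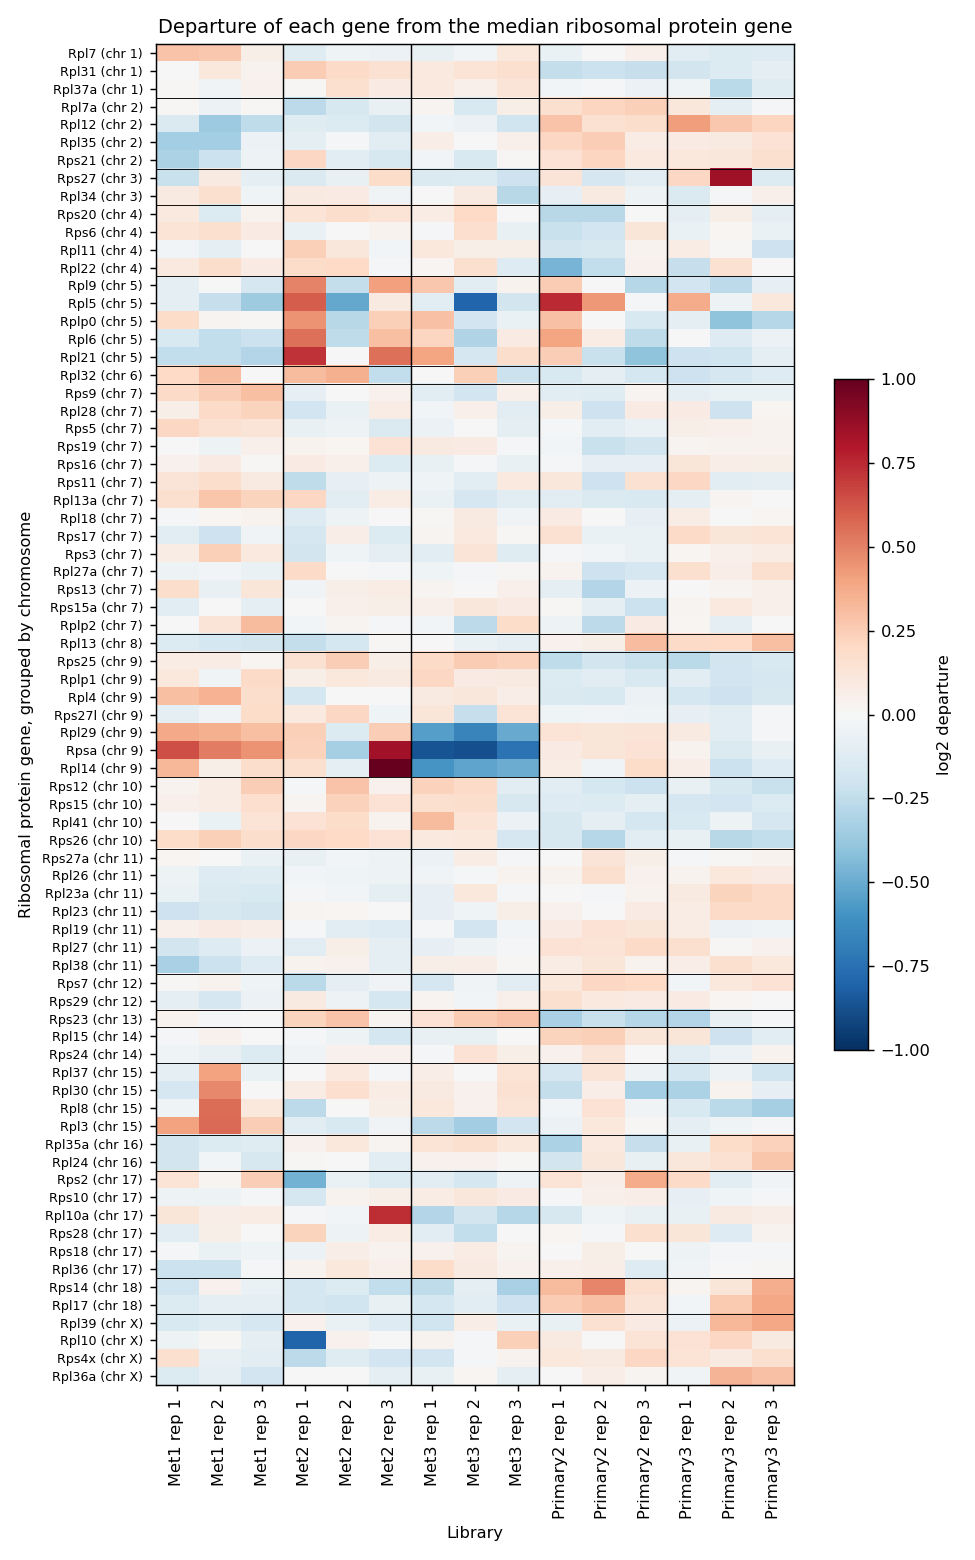
Departure of 75 of the 77 ribosomal protein genes, in log2 units, from the median ribosomal protein gene in each of the 15 libraries, grouped by chromosome. Blocks of one colour cover the chromosome 5 members in Met2 replicate 1, the distal chromosome 9 members in Met3 and the chromosome 15 members in Met1 replicate 2.

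On chromosome 5, Rpl21, Rpl6, Rpl9 and Rplp0 departed by 0.72, 0.55, 0.50 and 0.45 in Met2 replicate 1. In Met2 replicate 2 they departed by 0.01, -0.26, -0.24 and -0.28. The median of 527 other genes of that chromosome was 0.59 and -0.18 in these libraries. In CPM, Rpl21 was measured at 1117, 1023 and 1198 CPM in Met1, 3173, 1936 and 2721 in Met2, 2476, 1983 and 2410.4 in Met3, 2234, 1505 and 1086 in Primary2 and 1495, 1668 and 1621 in Primary3. Its 3 Met1 libraries were among the 4 lowest, beside Primary2 replicate 3, and the libraries of Met2 and Primary2 spread widely. Without Met2 replicate 1, 23 members were called higher in metastasis against primary, 6 in Met2 against Primary2 and 41 in Met2 against Met1, with 0 lower in each. Of all genes 16.1%, 6.82% and 8.48% were then higher in that order, and 18.1%, 7.16% and 7.96% lower.

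On distal chromosome 9, Rpsa departed by 0.65, 0.52 and 0.45 in Met1 and by -0.87, -0.88 and -0.74 in Met3. The 55 other genes within 10 Mb of it had medians of 0.35, 0.32 and 0.31 in Met1 and -0.39, -0.41 and -0.45 in Met3. Rpl29, which starts at 106429454, departed by -0.55, -0.66 and -0.50 in Met3, and Rpl14, at 120571444, by -0.59, -0.53 and -0.50. The proximal chromosome 9 members Rps25, Rplp1, Rpl4 and Rps27l had mean departures of 0.23, 0.13, 0.09 and 0.01 in Met3 and of 0.06, 0.09, 0.27 and 0.02 in Met1. Rpl14 and Rpsa stood far above their neighbours in Met2 replicate 3, at 1.06 and 0.84, where the neighbours of Rpsa had a median of 0.28.

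On chromosome 15, Rpl3, Rpl8, Rpl30 and Rpl37 departed by 0.57, 0.56, 0.48 and 0.41 in Met1 replicate 2, where 320 other genes of the chromosome had a median of 0.54. The other 2 Met1 libraries had chromosome medians of 0.01 and 0.03. On chromosome 18, Rps14, the gene haploinsufficient in a human myelodysplastic syndrome, departed upward in all 6 primary libraries, and 209 other genes of the chromosome had positive medians there too. Rps14 fell short of the test in metastasis against primary (-0.26, SE 0.12, adjusted p = 0.103).

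Across all 77 members, the difference of the departures between later metastases and primaries went with the median difference of the other genes within 10 Mb (Pearson r = 0.71, Spearman rho = 0.72, n = 77 members). For Met1 against the primaries r was 0.73 and rho 0.72, and for Met3 against Met1 r was 0.57 and rho 0.20. In single libraries r ran from 0.53 to 0.77. The 2 values of a point come from the same libraries, 38 members lie within 10 Mb of another and so share neighbours, and the neighbours numbered 17 to 191. For 7741 other genes the same r was 0.28, 0.30 and 0.22 in that order, and rho 0.44, 0.38 and 0.24.

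Most members called higher in the later metastases lay among genes whose median was higher too. Of the 25, 23 had a positive median difference of their neighbours, with a median of 0.18. Of the 51 members that were not called, 13 had one, with a median of -0.07. The neighbours differed by 0.23 around Rps25 (74 genes), 0.18 around Rpl31 (49), 0.21 around Rps26 (62), 0.20 around Rps23 (57) and 0.29 around Rpl4 (97). They differed by -0.30 around Rpl13 (76 genes), which was not called in that comparison. The part of the neighbourhood in these calls was not tested.

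**Figure D5:**
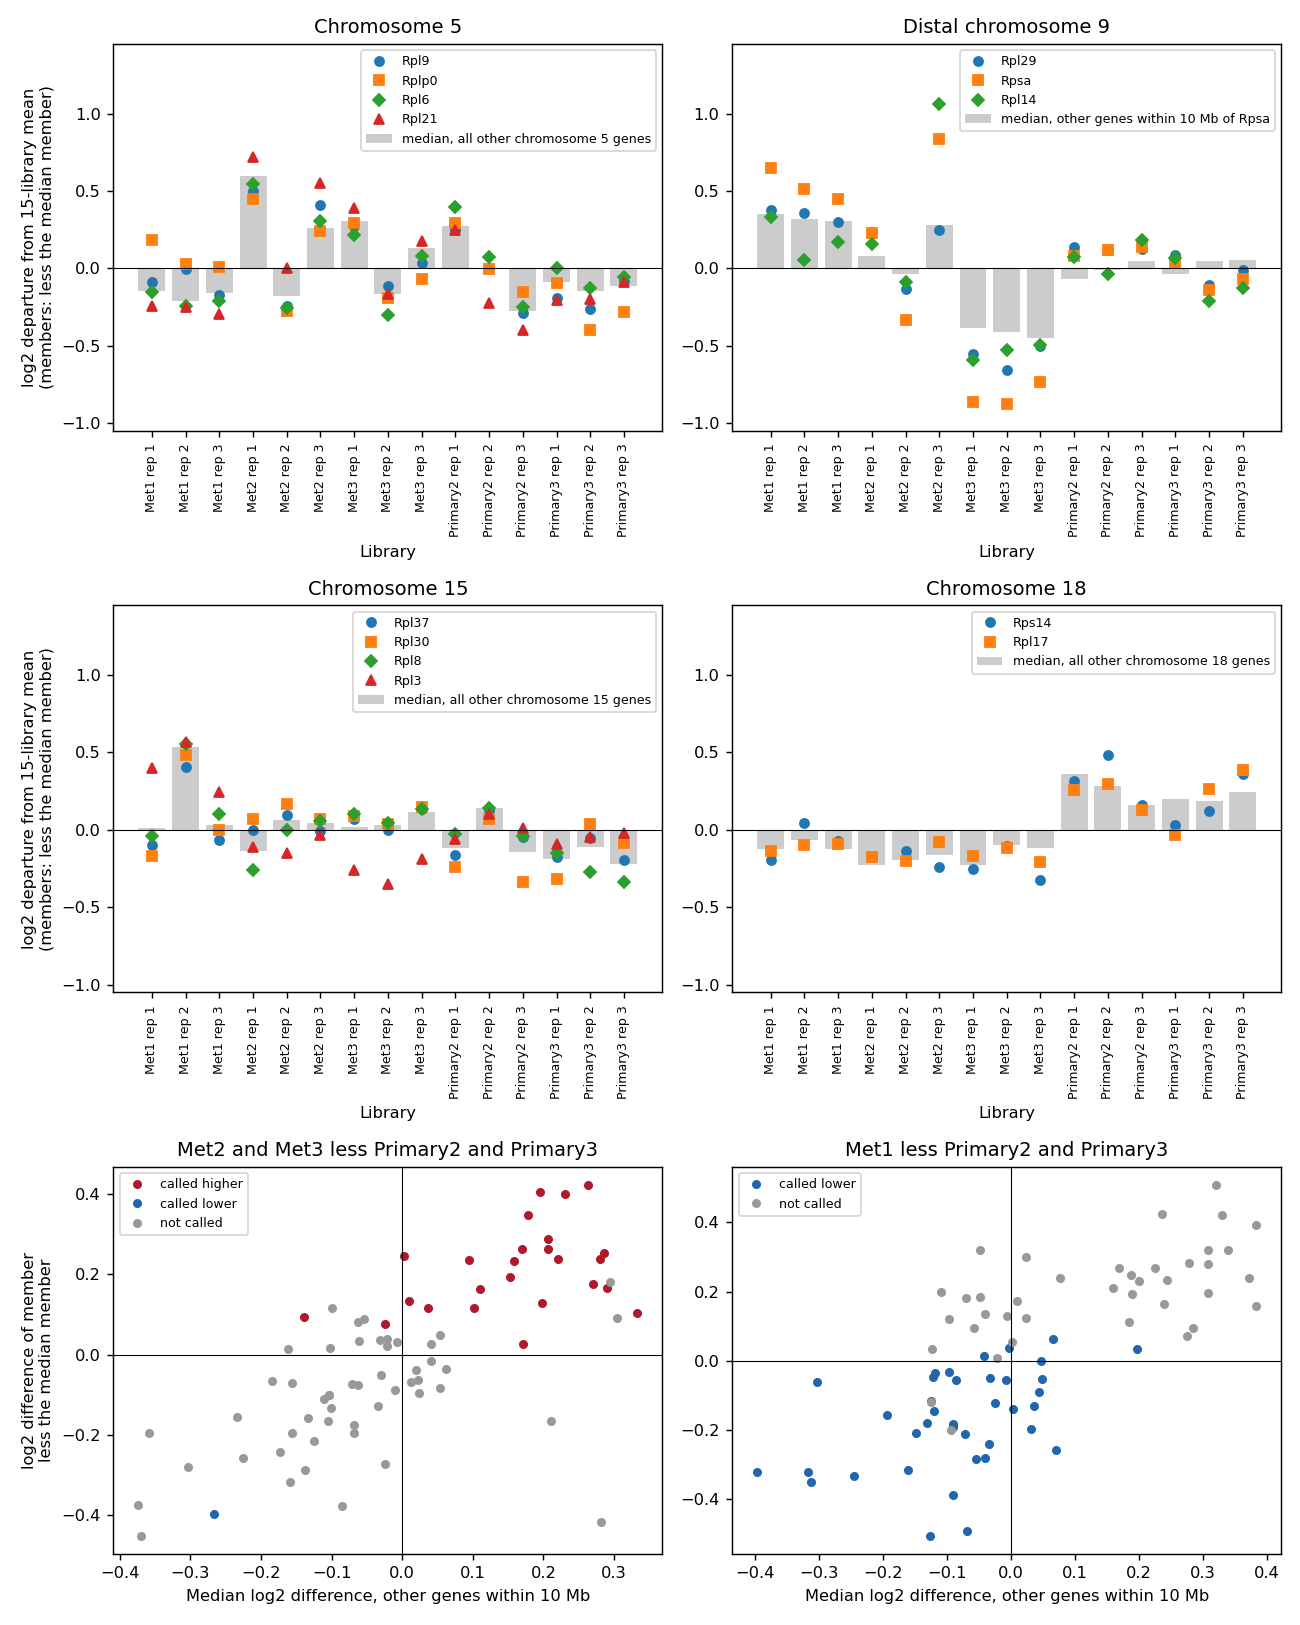
Top: log2 departures of ribosomal protein genes (symbols) and the median departure of other genes of the same chromosome or within 10 Mb (bars) in each library, for chromosome 5, distal chromosome 9, chromosome 15 and chromosome 18. Bottom: for 77 members, the log2 difference of the departure against the median difference of neighbouring genes, for later metastases less primaries (r = 0.71) and Met1 less primaries (r = 0.73), coloured by call.

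Some departures had no match among the neighbours. Rpl10a on chromosome 17 stood at 0.74 in Met2 replicate 3, where 191 other genes within 10 Mb had a median of -0.01. In CPM it was measured at 1117, 1103 and 1806 in Met2, with all other libraries at or below 1187. Rpl10 on chromosome X stood at -0.80 in Met2 replicate 1, where its 41 neighbours had a median of -0.11. Its CPM there was 323, against 582 and 541 in the other Met2 libraries, and its copy Rpl10-ps3 did not share that low value (1358, 1538 and 1297 CPM). Rps27 stood at 0.85 in Primary3 replicate 2, on 20.7 CPM. Between later metastases and primaries, the departure of Rpl5 on chromosome 5 differed by -0.42, where the median of its neighbours differed by 0.28. For Rpl3 on chromosome 15 these values were -0.17 and 0.21, and in Met3 against Met1 they were -0.67 and -0.08.

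The stalk genes differed in their calls. Rplp0, the base of the stalk, was measured at 2893, 2382 and 2846 CPM in Met1, 5058, 3061 and 4208 in Met2, 4453, 3751 and 3912 in Met3, 4423, 3369.6 and 2479 in Primary2 and 3103, 2786 and 2724 in Primary3. The Met3 libraries lay above the Met1 libraries with no overlap, while those of the later metastases and the primaries overlapped. Neither Met3 against Met1 (0.58, SE 0.21, adjusted p = 0.0592) nor metastasis against primary (0.38, SE 0.15, adjusted p = 0.0655) passed the test. Rplp1 was called in both, at 0.67 (adjusted p = 0.00476) and 0.45 (0.00368). Rplp2, its dimer partner, stood at 631 ± 123 CPM in Met1, 801 ± 28.96 in Met2, 864 ± 139 in Met3, 675 ± 79.5 in Primary2 and 741 ± 14.9 in Primary3. It was called in Met3 against Met1 (0.45, SE 0.15, adjusted p = 0.041) and not in metastasis against primary (0.23, SE 0.10, adjusted p = 0.104). Among 14 alternatives for Met3 against Met1, the call of Rplp2 was lost in 6 and Rplp0 newly passed in 3.

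Of the Mdm2-binding proteins, Rpl11 was measured at 313, 275 and 357 CPM in Met1, 549, 505 and 438 in Met2, 489.9, 561 and 539 in Met3, 400.2, 380.4 and 355 in Primary2 and 438, 467 and 359.9 in Primary3. It rose in Met3 against Met1 (0.75, SE 0.13, adjusted p = 0.00308) and in metastasis against primary (0.36, SE 0.09, adjusted p = 0.011), and Met1 was lower than the primaries (-0.34, SE 0.12, adjusted p = 0.0404). Rpl5 passed only in Met1 against the primaries (-0.92, SE 0.26, adjusted p = 0.0207), a value that rests on the small part of its counts not given to Gm15500. Rpl23 passed in the 3 comparisons with Met1 and not in metastasis against primary (0.10, SE 0.09, adjusted p = 0.424). Mdm2 itself was higher in the later metastases than in the primaries (0.52, adjusted p = 0.00414).

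Rps6, the small-subunit target of S6 kinase, stood at 1575 ± 104 CPM in Met1, 2041 ± 52.1 in Met2, 2306 ± 351 in Met3, 1696 ± 37.2 in Primary2 and 1885 ± 178 in Primary3. Its change was called in Met3 against Met1 (0.55, SE 0.11, adjusted p = 0.00605) and in metastasis against primary (0.28, SE 0.08, adjusted p = 0.0206). Rps19, the gene most often mutated in Diamond-Blackfan anaemia, rose in both as well (0.69, adjusted p = 0.00522, and 0.31, 0.0315). Rpl22, which also binds RNA outside the ribosome, rose in both (0.55, adjusted p = 0.0189, and 0.39, 0.0131). Its paralog Rpl22l1 differed from it in sign, at -0.70, adjusted p = 0.0299 in metastasis against primary.

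Among paralog pairs, Rps27l, which p53 induces, stood at 136 ± 26.5 CPM in Met1, 203 ± 21.8 in Met2, 209.9 ± 22.9 in Met3, 165 ± 23.00 in Primary2 and 169.9 ± 7.10 in Primary3, and rose in Met3 against Met1 (0.62, SE 0.15, adjusted p = 0.0119). Rps27 was given 7.015 ± 0.793 CPM in Met1, 10.9 ± 1.18 in Met2, 10.7 ± 1.011 in Met3, 9.39 ± 2.32 in Primary2 and 13.7 ± 6.19 in Primary3, and its copy Rps27rt 667 ± 60.2 CPM in Met1 and 934 ± 229 in Met3. Rpl3l, Rpl10l and Rpl39l held 4, 1 and 2 counts in all, and Rps4l has no entry in the gene models used here. The parents of Rpl10l, Rpl39l and Rps4l on chromosome X rose in Met3 against Met1. They are Rpl10 (0.78, SE 0.19, adjusted p = 0.0124), Rpl39 (0.74, SE 0.16, adjusted p = 0.00813) and Rps4x (0.59, SE 0.13, adjusted p = 0.00812). None of these 3 passed in metastasis against primary (adjusted p from 0.694 to 0.999).

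Ribosomal proteins outside the symbol rule had calls in the same direction as most members in the comparisons with Met1. Of 8, 5 rose in Met3 against Met1 (median 0.50) and 5 were lower in Met1 than in the primaries (median -0.42), among them Rpl36al (0.65, adjusted p = 0.00386 and -0.42, adjusted p = 0.0121). In metastasis against primary 0 rose and 1, Rpl22l1, fell. Of 78 mitochondrial ribosomal proteins, 28 rose and 1 fell in Met3 against Met1 (median 0.33), where 11.6% of all genes rose and 11.8% fell. In metastasis against primary 14 rose and 3 fell (median 0.09), where 14.3% of all genes rose and 16.1% fell. In Met1 against the primaries 1 was higher and 24 were lower (median -0.27), where 14.9% of all genes were higher and 14.7% lower. The same shares of all genes stand beside the counts of the 8 proteins above.

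The ribosome biogenesis genes called in the comparisons with Met1 were mostly lower in Met1. Of 47 biogenesis genes, 11 rose and 1 fell in Met3 against Met1 (median 0.27), where 23.4% of all genes were called. In Met1 against the primaries 1 was higher and 16 lower (median -0.32), where 29.6% were called. In metastasis against primary 4 rose and 5 fell (median -0.06), where 30.4% were called. Ppan, a factor of large-subunit assembly, rose in Met3 against Met1 (0.85, adjusted p = 0.00335), as did Nop56 of the box C/D particle (0.69, adjusted p = 0.0165). Nob1, the nuclease that finishes small-subunit RNA, was lower in Met1 than in the primaries (-0.69, adjusted p = 0.00167). Of 9 snoRNA host genes, 6 rose and 1 fell in Met3 against Met1 (median 0.84), where 23.4% of all genes were called. The risers were led by Snhg1 (1.21, adjusted p = 0.000849) and Gas5 (0.93, adjusted p = 0.00291). In metastasis against primary 3 of the host genes rose (median 0.04), where 30.4% of all genes were called.

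Of 12 elongation factors and other TOP genes, 5 rose in Met3 against Met1 (median 0.38) and 4 in metastasis against primary (median 0.18), with 0 lower in either. Here and for the 2 lists below, 11.6% of all genes rose and 11.8% fell in Met3 against Met1. In metastasis against primary 14.3% of all genes rose and 16.1% fell. Eef1b2 rose in both (0.66, adjusted p = 0.00399 and 0.34, adjusted p = 0.0117), and in Met1 against the primaries Eef1d was lower (-0.47, adjusted p = 0.0106) and Eef2 higher (0.51, adjusted p = 0.0148), with a list median of -0.15. Of 27 initiation factors, 3 rose and 1 fell in Met3 against Met1 (median 0.07), and 3 rose and 3 fell in metastasis against primary, with Eif3f lower (-0.69, adjusted p = 0.000378) and Eif1 higher (0.41, adjusted p = 0.00104). Of 11 regulators of ribosomal protein synthesis, 0 passed in Met3 against Met1 by edgeR, with 2 at an unadjusted p under 0.05 (median -0.10). In metastasis against primary 4 rose and 0 fell, among them Myc (0.40, adjusted p = 0.0359) and Eif4ebp2, a brake on cap-dependent initiation (0.47, adjusted p = 0.0135). In Met1 against the primaries 4 were higher and 0 lower (median 0.32), where 14.9% of all genes were higher and 14.7% lower. Mdm2 and Eif4ebp2 were again among the 4.

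Sequences around the start site are shown for members that rose in the later metastases, 4 with the pyrimidine tract and 2 without. RefSeq windows (GRCm38.p6) existed for 60 members, 72 windows in all. A C followed by at least 4 C or T, on the gene's strand and with its first base within 10 bases of the start, stood in 37 of 72 windows (51.4%) and in 27.9% of all 32851 windows. CCGGAAG on either strand, the ETS family core, stood in 26 of 72 (36.1%) against 8.86% of all 300-base windows, and TATAAA on either strand in 6 of 72 (8.33%) against 13.6%. Read on the other strand CCGGAAG is CTTCCGG, whose first 5 letters fit the tract, and windows of one gene can overlap. Bases 15 before to 15 after the start are given for 6 members, with the tract in capitals.
Rpl31 (chr1:39367836-39367865, plus strand): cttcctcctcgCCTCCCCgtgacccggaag
Rps26 (chr10:128626492-128626521, minus strand): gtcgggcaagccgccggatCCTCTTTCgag
Rps23 (chr13:90923107-90923136, plus strand): gccttcggctgggcggggCTTCCCgcaatg
Rps6 (chr4:86857353-86857382, minus strand): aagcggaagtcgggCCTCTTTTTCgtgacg
Rps25 (chr9:44407699-44407728, plus strand): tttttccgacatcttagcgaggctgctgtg
Rpl4 (chr9:64173372-64173401, plus strand): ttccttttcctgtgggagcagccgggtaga
The first 4 hold a tract by this definition and Rps25 and Rpl4 do not. A match describes the letters at the annotated start and is not a measured site.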

How the data were processed

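RNA of 15 organoid libraries was extracted with a PureLink RNA Mini kit and prepared with the NEBNext Ultra II Directional kit after poly(A) selection, per the labels' protocols. The deposited table gives whole-number estimated counts per gene, which the authors made with Salmon 1.3.0 on mm10, per the submitters' processing notes. Neither the annotation release nor the step from transcripts to genes is given in the sources used here. GENCODE M21 (GRCm38, equal to mm10) gave symbols and positions for 54166 of 54418 IDs, and the other 252 hold 0.005767% of the counts.

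Groups were read from the sample titles. Comparisons were fitted with edgeR 4.0.16 (R 4.3.3, limma 3.58.1) on the counts of all 15 libraries: TMM scaling, the filterByExpr filter, 1 term per group and the quasi-likelihood F test. P-values were adjusted over the 14925 genes of each comparison by the Benjamini-Hochberg method, with 0.05 as the threshold for a call. Standard errors were obtained by dividing a log2 change by the root of its F value. The fit was tested on simulated data with known changes in metastasis against primary over 14925 genes, where it recovered 0% of genes changed 1.25-fold, 20% at 1.5-fold, 46% at 2-fold and 84% at 4-fold. The changed genes were drawn at random from the 14925, so these shares do not describe the members. Copies of the members were found with BLAST+ 2.17.0 as matches of at least 95% identity over at least 80% of the coding sequence and at least 50% of the copy. Departures use log2(CPM + 1), and neighbours are other genes within 10 Mb with a mean of at least 15 CPM. Figures were drawn with matplotlib 3.10.9.

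The members and all gene lists were chosen with earlier results of these data known. The text names 20 members fixed by role, up to 8 called members of smallest p per direction in Met3 against Met1 and in metastasis against primary, up to 4 in each other comparison, the 5 highest and 5 lowest per length, and up to 3 genes of smallest p per list. Members named for their chromosome region were chosen after their values were seen. Alternatives were DESeq2 1.42.0, 3 other scalings, no filter, only the groups compared, a replicate block, leaving out each library, and, added after seeing the data, each member summed with its copies. A few members and listed genes are counted in the totals but not reported here by name.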

Additional observations from a re-analysis of the deposited data

How the results depend on the processing

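Without the low-count filter, which tests more genes, the called members numbered 16 in metastasis against primary and 2 in Met2 against Primary2, all higher. They numbered 2, both higher, in Met3 against Primary3 and 1, lower, in Met3 against Met2. Of all genes 5.496%, 2.007%, 2.842% and 0.0431% were then higher in that order, and 6.459%, 2.223%, 4.07% and 0.219% lower. DESeq2 called 17 members higher in Met2 against Primary2, where it called 9.70% of all genes higher and 9.27% lower. It called 18 in Met3 against Primary3 (17 higher, 1 lower), where it called 11.7% of all genes higher and 13.9% lower, and 3 lower in Met3 against Met2, where it called 2.93% lower. With only the groups compared, Met2 against Primary2 and Met2 against Met1 gave 0 calls. Over all genes these fits called 0.687% and 0.0148% higher, and 0.901% and 0.0889% lower. The cause of the other shifts was not tested. Leaving out 1 library at a time gave 16 to 30 calls in metastasis against primary, 49 to 64 in Met3 against Met1, 1 to 7 in Met2 against Primary2, 2 to 10 in Met3 against Primary3, 8 to 46 in Met2 against Met1, 0 to 3 in Met3 against Met2 and 19 to 44 in Met1 against the primaries. The difference between rounds and Primary3 against Primary2 gave 0 in each. The shares of all genes called moved in these fits as well. They were 11.0% higher and 12.9% lower at the 16 calls, and 12.2% and 11.6% at the 30 without Met3 replicate 1. At the 49 calls they were 6.09% and 6.83%, at the 8 calls 1.62% and 2.10%, and at the 19 calls 7.49% and 6.25%.

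Deviations of same-numbered replicates from their group means had correlations from -0.126 to 0.268. Of 30 pairs 8 had a correlation over 0.1, and 8 of 15 libraries were closest to their own number among the 3. Whether same-numbered replicates share a source cannot be told from these values. With the replicate block, 25 members were called in metastasis against primary, 67 in Met3 against Met1, 6 in Met2 against Primary2, 10 in Met3 against Primary3, 50 in Met2 against Met1 and 37 in Met1 against the primaries. Of all genes 14.1%, 11.0%, 4.94%, 7.71%, 8.29% and 14.6% were then higher in that order. The shares lower were 16.0%, 11.3%, 5.96%, 10.4%, 7.57% and 14.8%. For the members named in metastasis against primary and in Met3 against Met1, 920 of the recomputed values kept their direction and side of the threshold, 87 no longer passed, 10 newly passed and 23 changed sign. The 23 belong to members that passed in neither setting. In metastasis against primary, library totals gave log2 changes of -0.0613 for Rpl10, -0.0517 for Rpl3 and -0.0796 for Rpl39, no filter gave -0.0119 for Rpl39, and sums with copies gave 0.277 for Rpl5 and 0.135 for Rps27. Leaving out 1 library at a time there gave -0.0317 to 0.137 for Rpl10, -0.000564 to 0.293 for Rpl14, -0.024 to 0.0961 for Rpl3, -0.0731 to 0.0976 for Rpl39, -0.185 to 0.145 for Rps27, -0.0915 to 0.0409 for Rps4x and -0.215 to 0.0549 for Rpsa. In Met3 against Met1 it gave -0.210 to 0.0181 for Rpl14 and -0.0842 to 0.0563 for Rpl3, with the positive values without Met3 replicate 1. The calls of Rps25, Rpl31, Rps26, Rps23 and Rpl4 in metastasis against primary held in all 20 alternatives. That of Rps6 was lost on library totals (adjusted p = 0.0746), without the filter (0.121) and without Primary3 replicate 3 (0.0552), and that of Rpl11 on library totals (0.0543). A member that was not called may still differ. The simulated data cannot give the size of change missed among the members, because their changed genes were drawn at random from all genes.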
